A study of Mus musculus with 11 samples.

Results

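The 8 genes described here encode transcription factors and a cofactor that are used as marks of habenular and neighbouring diencephalic neurons: Pou4f1, Nr4a2, Tcf7l2, Zic1, Lmo3, Etv1, Isl1 and Klf7. They were taken by gene symbol from a table of 54532 genes, and all 8 had enough counts to be tested, among 19619 genes that did. The libraries came from lateral habenula tissue dissected from brain slices of BALB/c mice aged 3 months. There were 3 libraries from female mice with collagen antibody-induced arthritis (CAIA), 3 from female controls (Ctrl), 3 from male CAIA mice and 2 from male Ctrl mice. CAIA mice received antibodies of 5 clones against type II collagen by intraperitoneal injection (50 mg/kg) and lipopolysaccharide (LPS, 1 mg/kg) 3 days later. Ctrl mice received vehicle, so the antibodies, LPS and the joint disease cannot be told apart. The series set arthritis beside depression-like behaviour and asked what differs in the lateral habenula. Whether each library stands for a different mouse is not given in the labels, and the p-values therefore cover the variation among these libraries, which may be technical.

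The habenula is a paired nucleus of the dorsal diencephalon that relays forebrain signals to the midbrain. Its medial division holds neurons that release acetylcholine or tachykinins together with glutamate, and its lateral division holds mostly glutamatergic neurons that respond to aversive events. In mice, the POU homeodomain factor Pou4f1 (also called Brn3a) is needed for habenular neurons to differentiate, and the orphan nuclear receptor Nr4a2 (Nurr1) is among the factors of the medial division. Tcf7l2 is the DNA-binding partner of β-catenin in Wnt signalling and acts in neurons of the habenula and thalamus. Zic1 is a zinc finger factor of the dorsal neural tube, and Etv1 is an ETS factor that marks several classes of projection neurons. Lmo3 has LIM domains but does not bind DNA itself, whereas Isl1 is a LIM homeodomain factor known from motor and sensory neurons. Klf7 is a Krüppel-like factor that supports axon growth.

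Pou4f1 lies on GRCm38 at chr14:104461676-104467999 on the minus strand, and Nr4a2 at chr2:57106830-57124003, also on the minus strand. The genome positions of the others are chr19:55741820-55933654 (plus strand) for Tcf7l2, chr9:91358058-91365810 (minus) for Zic1, chr6:138362918-138581968 (minus) for Lmo3, chr12:38779380-38870484 (plus) for Etv1, chr13:116298281-116309689 (minus) for Isl1 and chr1:64029447-64122282 (minus) for Klf7. All 8 are annotated as protein coding in GENCODE M21. Exons of Zic1 overlap those of Zic4 on the opposite strand, and without a stated strand setting reads of these genes cannot be told apart in the overlap. Zic4 had 3032 to 4366 counts per library.

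The promoters of Pou4f1 and Nr4a2 are shown as examples that lie outside the annotated genes, and no link to the levels was tested. Each is the stretch of 250 bases that ends just before the annotated start, from RefSeq on GRCm38.p6, at chr14:104468000-104468249 for Pou4f1 and chr2:57124004-57124253 for Nr4a2, read 5′ to 3′ on the minus strand. Capitals mark TGACG, the core of the cAMP response element, the GC box GGGCGG and the E box CANNTG, on either strand, and touching or overlapping matches run together.
Pou4f1: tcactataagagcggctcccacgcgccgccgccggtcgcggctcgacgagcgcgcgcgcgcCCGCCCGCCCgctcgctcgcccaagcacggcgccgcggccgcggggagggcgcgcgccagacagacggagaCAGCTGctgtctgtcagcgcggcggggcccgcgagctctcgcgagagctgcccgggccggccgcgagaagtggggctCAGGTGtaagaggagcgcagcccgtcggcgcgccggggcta
Nr4a2: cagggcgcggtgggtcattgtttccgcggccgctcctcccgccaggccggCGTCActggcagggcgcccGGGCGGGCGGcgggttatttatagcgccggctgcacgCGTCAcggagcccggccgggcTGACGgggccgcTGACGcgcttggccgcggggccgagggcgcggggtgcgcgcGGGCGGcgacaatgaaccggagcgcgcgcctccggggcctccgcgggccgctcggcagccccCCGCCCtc
The windows were 78.0% G or C in Pou4f1 and 80.0% in Nr4a2, against a median of 52.4% over 32851 annotated starts. In Nr4a2, TGACG stood 4 times, beginning 200, 144, 123 and 111 bases before the start, and 17.8% of all windows held it at least once. Pou4f1 had no TGACG and held 2 E boxes, which began 118 and 41 bases before the start, a motif found in 66.2% of windows. Both held the GC box, as 32.7% of windows did. The octamer ATTTGCAT bound by POU factors (1.6% of windows) and the Nr4a site AAAGGTCA (1.34%) were in neither window, which says only that these letters are not there.

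Expression levels within the tissue were compared per gene length, as TPM (a read count scaled by exon length and library depth), and covered more than 3 orders of magnitude. Zic1 was the most abundant of the 8, with 507.6 ± 67.5 TPM in Ctrl libraries (mean ± SD, n = 5) and rank 185 among all genes in the table. Tcf7l2 followed with 176 ± 29.7 TPM, Nr4a2 with 154.6 ± 40.3 TPM and Pou4f1 with 117.7 ± 24.1 TPM. The ranges of Tcf7l2 and Nr4a2 overlapped between Ctrl libraries, as did those of Nr4a2 and Pou4f1, although Nr4a2 was above Pou4f1 in 11 of 11 libraries. Etv1 had 51.4 ± 11.4 TPM and Lmo3 33.8 ± 9.74 TPM, with overlapping ranges, and Klf7 had 16.7 ± 3.85 TPM. Isl1 stood apart from the other 7, at 0.285 ± 0.279 TPM and rank 23613. It was represented by 3 to 24 counts per library, so in this dissected tissue the data do not bear out Isl1 as an abundant mark of the habenula. The order of the 8 was the same when the longest transcript was used as gene length, although the level of Tcf7l2 was then 334 TPM in Ctrl libraries.

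Several of the 8 were more abundant than the relatives chosen from their families, which for Klf7 were only Klf4, Klf5 and Klf6. Among relatives, the highest Ctrl levels per gene length were those of Zic2 (272.7 TPM) beside Zic1, Lef1 (19.5) beside Tcf7l2, Nr4a1 (26.2) beside Nr4a2, Pou4f3 (0.933) beside Pou4f1 and Etv5 (43.8) beside Etv1. The ranges of Etv1 and Etv5 overlapped between Ctrl libraries. Lmo2 (38.8 TPM in Ctrl) had a higher mean than Lmo3 in Ctrl libraries, while in CAIA libraries Lmo3 averaged 40.5 TPM and Lmo2 35.3 TPM, with overlapping ranges in both. Klf6 (44.4 TPM in Ctrl) was above Klf7 in every library. Isl2 was scarce too, at 0.412 TPM in CAIA and 0.108 TPM in Ctrl libraries. Pou4f1 was thus the single abundant member of the Pou4f family in these dissections, whereas Zic1, Zic2 and other Zic genes were present side by side.

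**Figure D1:**
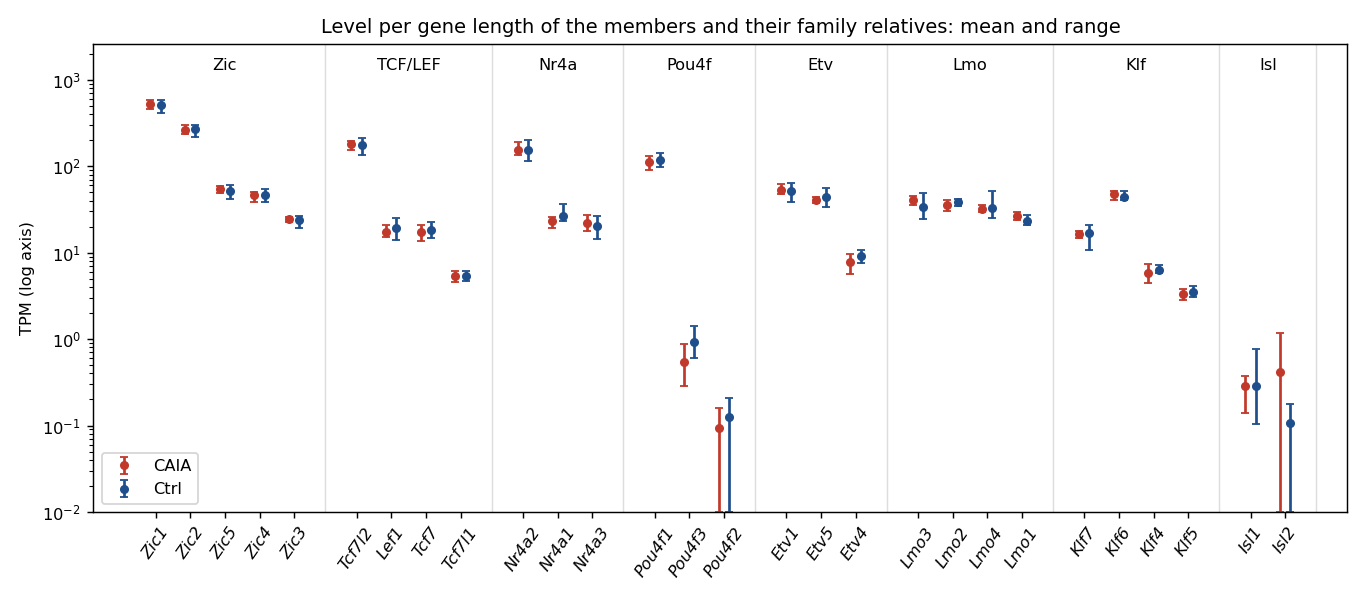
Mean level (points) and range over libraries (bars) in TPM on a log axis, for the 8 genes and chosen family relatives, in CAIA (n = 6, left of each pair) and Ctrl (n = 5, right) libraries. Bars that reach the axis floor include a library at 0. Zic1 was highest at 507.6 TPM in Ctrl, and both Isl genes lay near the bottom.

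Markers of the habenula were present in every library. The 15 medial habenula markers summed to 1741 to 2205 CPM (counts scaled by library depth alone) in CAIA libraries and 1715 to 2133 CPM in Ctrl libraries. The 12 lateral habenula markers summed to 1776 to 2098 CPM in CAIA and 1709 to 2116 CPM in Ctrl libraries. The dissections also held RNA of neighbours. Thalamus markers summed to 1647 to 2247 CPM in CAIA and 1180 to 2361 CPM in Ctrl libraries, and hippocampus and cortex markers to 517 to 777 CPM in CAIA and 445 to 1102 CPM in Ctrl libraries. Choroid plexus markers summed to 227 to 2118 CPM in CAIA and 2712 to 5643 CPM in Ctrl libraries, without overlap. Of the medial habenula, lateral habenula, thalamus, and hippocampus and cortex markers, 0 passed between CAIA and Ctrl in edgeR. In such bulk tissue, fewer cells of a type and less RNA per cell cannot be told apart.

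The main question was whether arthritis was accompanied by a different level of these factors. In edgeR's quasi-likelihood test over both sexes, 0 of the 8 genes passed an adjusted p of 0.05, and 0 had an unadjusted p below 0.05. Over all 19619 genes tested, 117 (0.596%) passed, 4 of them higher and 113 lower in CAIA, and 1248 (6.36%) had an unadjusted p below 0.05. DESeq2 and limma-voom also called 0 of the 8. The CAIA and Ctrl libraries overlapped for all 8, against 1.18% of genes whose groups did not overlap. Of the 8 fitted log2 fold changes 7 were above 0, with a median of 0.06, against 9819 of 19619 genes and a median of 0.00 over all genes.

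Pou4f1 was measured at 149.2, 142.1 and 167.4 CPM in female CAIA libraries, against 133.2, 130.9 and 179.1 CPM in female Ctrl libraries. In males it had 148.4, 164.9 and 121.2 CPM in CAIA, against 132.1 and 178.4 CPM in Ctrl libraries. The highest and the second highest values were both from Ctrl libraries, and the groups overlapped in each sex. The log2 fold change over both sexes was -0.03 ± 0.11 (SE), with a 95% interval of -0.27 to 0.22 (adjusted p = 0.990, edgeR).

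Nr4a2 had 181.8, 165.9 and 213.7 CPM in female CAIA libraries, against 154.5, 143.1 and 214.4 CPM in female Ctrl libraries. In males the values were 164.2, 184.6 and 154.9 CPM in CAIA and 133.8 and 213.5 CPM in Ctrl libraries. Here too 1 Ctrl library of each sex was high and the rest low, so that the CAIA values fell inside the Ctrl range in each sex. The log2 fold change was 0.04 ± 0.14 (interval -0.26 to 0.35, adjusted p = 0.983, edgeR). Nr4a2 is also an activity-induced gene in many neurons. Of the 14 immediate early genes tested, 7 had a fold change above 0 and 7 below over both sexes, with a median of -0.02, and 0 passed. The sexes differed in direction, with 3 above 0 and 11 below in females (median -0.22). In males 12 were above 0 and 2 below (median 0.27), and 0 passed in either sex.

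Tcf7l2 showed 461.3, 444.1 and 473.0 CPM in female CAIA libraries, which lay between 344.8, 497.5 and 376.3 CPM in female Ctrl libraries. In males it had 450.7, 395.5 and 436.4 CPM in CAIA, against 485.4 and 423.6 CPM in Ctrl. Female CAIA values were close together and above 2 of the 3 female Ctrl values. The fitted log2 fold change was 0.18 ± 0.12 in females and -0.09 ± 0.13 in males, and the difference between the sexes, 0.27 ± 0.18, did not pass (adjusted p = 0.978, edgeR). Over both sexes it was 0.04 ± 0.09 (interval -0.15 to 0.24, adjusted p = 0.972, edgeR).

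Zic1 stood at 867.2, 831.4 and 917.2 CPM in female CAIA libraries, against 684.6, 805.4 and 832.1 CPM in female Ctrl libraries. In males the values were 863.5, 872.0 and 744.2 CPM in CAIA, against 766.3 and 878.0 CPM in Ctrl libraries. Only the lowest female CAIA value fell within the female Ctrl range, and by less than 1 CPM. Over both sexes the log2 fold change was 0.09 ± 0.08 (interval -0.08 to 0.26, adjusted p = 0.929, edgeR). Its interval was the narrowest of the 8 and ran from 0.948-fold to 1.19-fold.

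Etv1 had 200.8, 171.3 and 226.9 CPM in female CAIA libraries, against 164.9, 177.7 and 226.6 CPM in female Ctrl libraries. In males it had 194.0, 200.3 and 185.0 CPM in CAIA and 147.4 and 219.2 CPM in Ctrl libraries. In each sex the groups overlapped, and the male CAIA values fell between the Ctrl values. The log2 fold change was 0.07 ± 0.11 (interval -0.17 to 0.32, adjusted p = 0.962, edgeR).

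Lmo3 had the largest fitted difference of the 8. It was at 55.7, 60.0 and 55.3 CPM in female CAIA libraries, against 51.4, 34.2 and 66.5 CPM in female Ctrl libraries. In males it was at 52.6, 61.5 and 65.7 CPM in CAIA, against 36.9 and 49.6 CPM in Ctrl libraries. All male CAIA values lay above both male Ctrl values, an order also seen in 9.18% of all genes, while in females the groups overlapped. The log2 fold change was 0.32 ± 0.15 over both sexes (interval -0.02 to 0.65, unadjusted p = 0.0600, adjusted p = 0.799, edgeR) and 0.47 ± 0.23 in males (unadjusted p = 0.0640, adjusted p = 0.914, edgeR). Without a filter on low counts the same fold changes had adjusted p of 0.00732 and 0.0117 in edgeR. That setting also called far more of all genes than the main fit in both comparisons, with counts given under processing below. The cause of this difference was not tested.

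Isl1 was counted 8, 10 and 12 times in female CAIA libraries, against 4, 4 and 24 times in female Ctrl libraries. In males it was counted 4, 11 and 7 times in CAIA and 8 and 3 times in Ctrl libraries. A single female Ctrl library held the highest count, and the log2 fold change of 0.15 ± 0.52 had an interval of -0.96 to 1.27 (adjusted p = 0.983, edgeR). This interval was the widest of the 8. Isl1 is also known from the pineal gland, a neighbour of the habenula, whose markers summed to 15.4 to 58.5 CPM in CAIA and 15.8 to 30.5 CPM in Ctrl libraries. Of 11 such markers tested 9 had a fold change above 0 and 0 passed, and the pineal genes Tph1, Asmt and Crx had 0 counts in at least 1 library. Their part in the Isl1 counts was not tested.

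Klf7 had 38.1, 38.3 and 34.6 CPM in female CAIA libraries, against 37.2, 42.7 and 36.6 CPM in female Ctrl libraries. In males the values were 41.2, 38.0 and 34.7 CPM in CAIA, against 25.4 and 44.6 CPM in Ctrl libraries. The male Ctrl libraries were the lowest and the highest of all 11, so that the CAIA values lay between them. The log2 fold change was 0.02 ± 0.12 (interval -0.23 to 0.28, adjusted p = 0.990, edgeR).

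**Figure D2:**
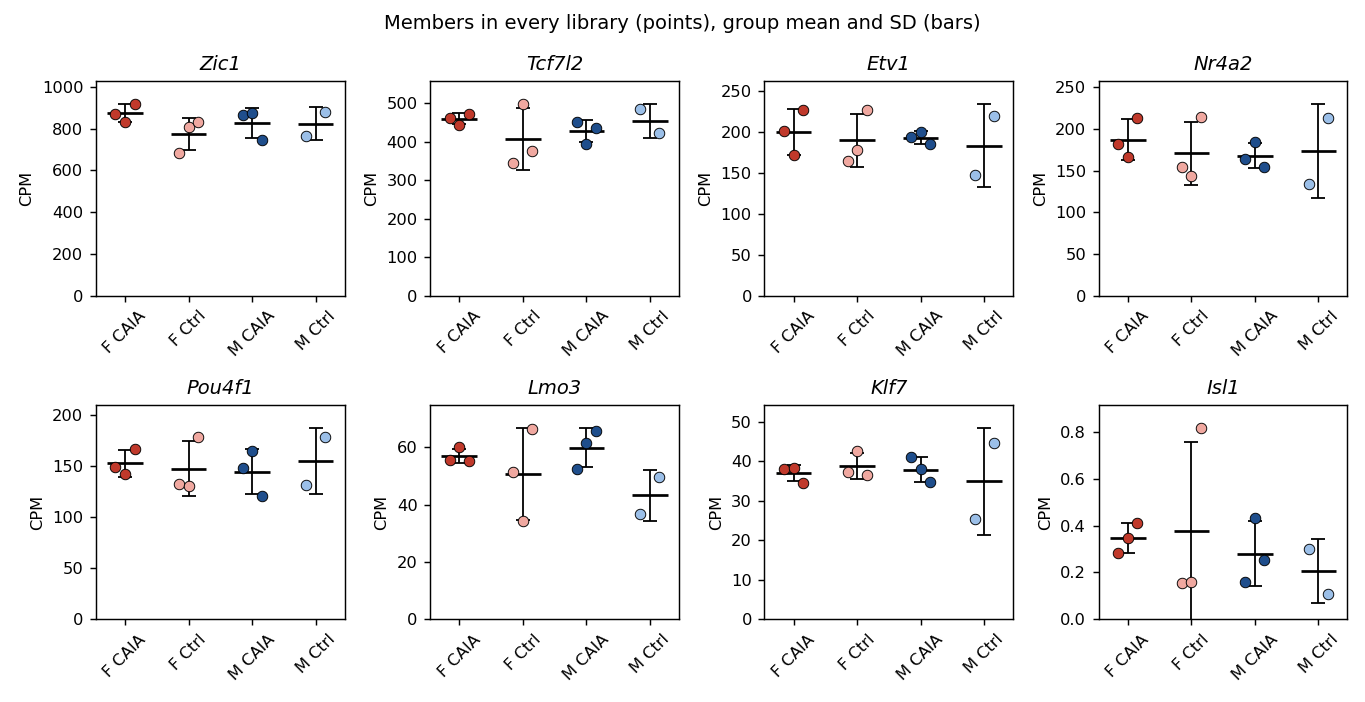
Level of each of the 8 genes in CPM in every library (points), with the group mean (horizontal line) and SD (bars), for females (F) and males (M), CAIA left of Ctrl, n = 3 per group and 2 male Ctrl. Each axis starts at 0, where the lower SD bar of Isl1 in female Ctrl is cut off. CAIA and Ctrl points overlap within each sex in every panel, except for Lmo3 in males.

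**Figure D3:**
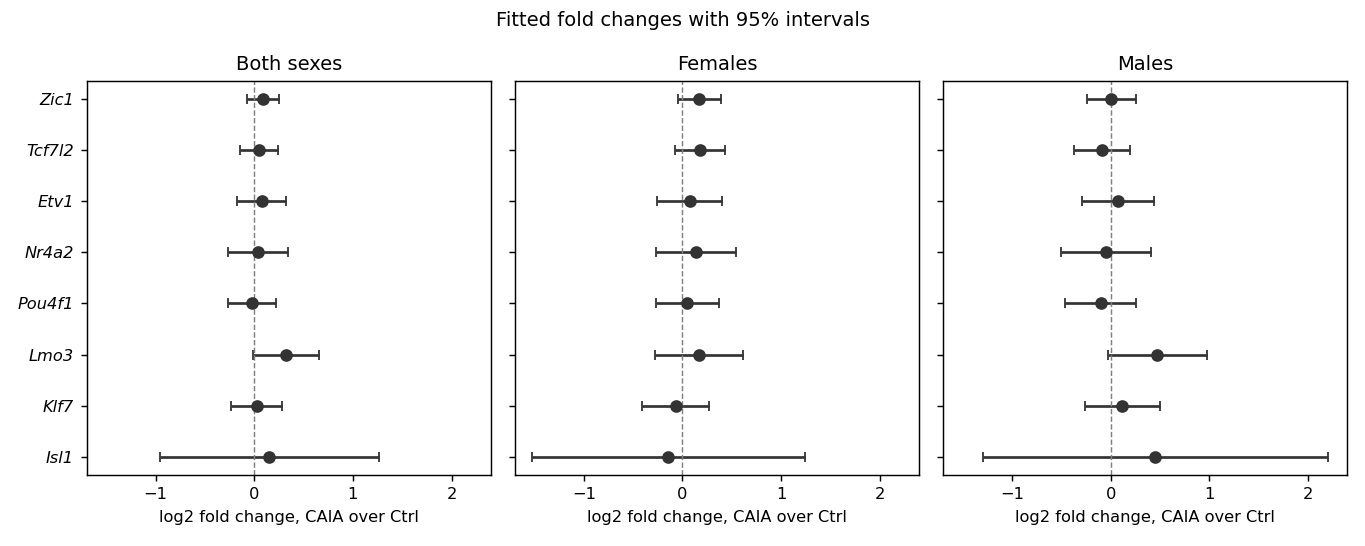
Fitted log2 fold change of CAIA over Ctrl (points) with 95% intervals (bars) for the 8 genes in 3 panels, for both sexes together, females and males. Every interval includes 0, and Isl1 has the widest.

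Within each sex the result was the same. In females, 0 of the 8 passed in edgeR, against 51 genes overall (0.26%) and 1025 (5.22%) below an unadjusted p of 0.05, and the fold changes ran from -0.14 for Isl1 to 0.18 for Tcf7l2. The female groups overlapped for all 8, while 11.5% of all genes did not overlap. In males, 0 of the 8 and 0 of 19619 genes (0%) passed in edgeR, although 1104 genes (5.63%) had an unadjusted p below 0.05 and DESeq2 called 71 genes, none of them among the 8. Only Lmo3 did not overlap in males, 1 of 8, against 17.7% of all genes. The difference between the female and the male effect passed for 0 of the 8 and for 0 genes overall (0%) in edgeR, with 807 genes (4.11%) below an unadjusted p of 0.05 and 2 genes called by DESeq2. Between female and male libraries 0 of the 8 passed, against 9 genes overall (0.0459%) and 1326 (6.76%) below an unadjusted p of 0.05, and 7 of the 8 fitted differences were between -0.03 and 0.08 on the log2 scale. The other was that of Isl1, at 0.61 ± 0.52 (interval -0.50 to 1.72).

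Genes that work with these factors or belong to their families did not pass either. Of 20 family relatives 19 were tested, with 9 fold changes above 0 and 10 below, a median of -0.03 and 0 calls. The lowest unadjusted p in edgeR among them was that of the LIM-only gene Lmo1, with 11.7 ± 0.851 CPM in CAIA (SD, n = 6) and 9.92 ± 1.26 CPM in Ctrl libraries (n = 5), a log2 fold change of 0.22 ± 0.09 (adjusted p = 0.721). Of 14 cofactors, such as the β-catenin partners of Tcf7l2 and the LIM domain binding proteins, 6 had a fold change above 0 and 8 below, and 0 passed. The Wnt cofactor Pygo1 came closest, at 57.1 ± 3.31 CPM in CAIA and 51.0 ± 6.25 CPM in Ctrl libraries (log2 fold change 0.20 ± 0.07, edgeR adjusted p = 0.530).

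Among 23 further transcription factors of the dorsal diencephalon, 22 were tested, 13 with a fold change above 0 and 9 below, and 1 passed. Lmx1a, a LIM homeodomain factor of the roof plate and choroid plexus lineage, fell to 0.410 ± 0.277 CPM in CAIA (SD, n = 6), against 1.67 ± 0.606 CPM in Ctrl libraries (n = 5), with a log2 fold change of -2.05 ± 0.41 (adjusted p = 0.0393, edgeR). Its counts were low, at 2 to 68 per library. Lmx1a no longer passed when any 1 of 9 libraries was left out, and the adjusted p in edgeR ranged from 0.0122 to 0.136 over the 11 fits. All 14 choroid plexus markers had fold changes below 0 and 7 passed, a count that ranged from 0 to 14 over the same fits. The part of choroid plexus RNA in the Lmx1a result was not tested. Prox1, a homeodomain factor that was also on the hippocampus and cortex list, had 128.3 ± 14.2 CPM in CAIA and 108.1 ± 12.7 CPM in Ctrl libraries and did not pass (log2 fold change 0.27 ± 0.08, edgeR adjusted p = 0.332). Otx2, a homeodomain factor also active in choroid plexus, had 24.3 ± 3.43 CPM in CAIA and 32.7 ± 6.45 CPM in Ctrl libraries and did not pass (log2 fold change -0.42 ± 0.13, edgeR adjusted p = 0.355).

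The spread between libraries was above the median of well expressed genes for all of the 8 but Zic1. The SD of log2 CPM within groups was 0.12 for Zic1 and 0.17 for Tcf7l2, 0.22 to 0.24 for Pou4f1, Etv1 and Klf7, 0.27 for Nr4a2 and 0.30 for Lmo3. The median over all genes tested was 0.19, and it was 0.16 over the 15556 genes with at least 1 CPM. Among these better expressed genes, Zic1 was at the 33.6th percentile of spread, Tcf7l2 at the 54.8th, Pou4f1 at the 72.2nd, Etv1 at the 73.2nd, Klf7 at the 75.4th, Nr4a2 at the 81.0th and Lmo3 at the 84.4th. Isl1, with its few counts, had an SD of 0.74, at the 94.96th percentile of all genes tested. Differences between the 4 groups took little of the variance of Pou4f1, of which 95.3% lay within groups, against a median of 71.3% over all genes.

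All 8 varied more between Ctrl than between CAIA libraries. The coefficient of variation was 11.3% in CAIA and 17.0% in Ctrl for Pou4f1, 11.8% and 22.8% for Nr4a2 in CAIA and in Ctrl, and 6.05% and 15.6% for Tcf7l2 in the same order. For Lmo3 it was 8.25% in CAIA and 27.1% in Ctrl, and for Klf7 6.62% in CAIA and 20.1% in Ctrl. The same direction was found in 67.3% of all genes tested, whose median coefficient was 10.7% in CAIA and 15.1% in Ctrl libraries. Summed thalamus markers, given above, also ranged more widely in Ctrl libraries, and their part in this spread was not tested.

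Pou4f1, Nr4a2 and Etv1 varied together from library to library. All 3 were above their own means over the 11 libraries in female CAIA replicates 1 and 3 and male CAIA replicate 2. The same held in female Ctrl replicate 3 and male Ctrl replicate 3. They were below their means in female CAIA replicate 2, male CAIA replicate 3, female Ctrl replicates 1 and 2 and male Ctrl replicate 1. In male CAIA replicate 1 only Etv1 was above its mean. Nr4a2 and Etv1 had a Pearson r of 0.931 of log2 CPM over 11 libraries and a Spearman rho of 0.909 (permutation p = 8e-05 for r, 0.00224 adjusted over 28 pairs). Pou4f1 and Nr4a2 had an r of 0.913 and a rho of 0.918 (permutation p = 0.00024, adjusted 0.00336). Pou4f1 and Etv1 had an r of 0.814 and a rho of 0.818 (permutation p = 0.00267, adjusted 0.0249). These 3 of the 28 pairs passed, and r without the 2 libraries farthest from the median was 0.885, 0.943 and 0.882 in the same order.

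The pairing of Pou4f1 and Etv1 was the weakest of these. Its adjusted permutation p was above 0.05 without female CAIA replicate 3 (0.0623), female Ctrl replicate 3 (0.0547), male CAIA replicate 1 (0.0534) or male Ctrl replicate 3 (0.0638). With deviations from group means, which leave out any difference between the 4 groups, r was 0.952 for Nr4a2 and Etv1, 0.934 for Pou4f1 and Nr4a2 and 0.871 for Pou4f1 and Etv1. The exact permutation within groups has 432 arrangements and a smallest p of 0.00231. A single pair at this p could not pass after adjustment over 28 pairs, and 0 passed (adjusted p = 0.0864, 0.0647 and 0.0648 in that order). By rank correlation 6 pairs passed, since Zic1 then joined Pou4f1 (rho 0.791, permutation p 0.0315 adjusted), Nr4a2 and Etv1.

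Tcf7l2, Lmo3, Klf7 and Isl1 were in none of the pairs that passed over the 11 libraries, by r or by rho. Tcf7l2 had negative r with 6 of the 7 others, the lowest with Lmo3 (r = -0.524, permutation p = 0.298 adjusted), and a positive r of 0.38 with Zic1, and none of these passed. Klf7 was low in male Ctrl replicate 1 and high in male Ctrl replicate 3. Lmo3 was low in female Ctrl replicate 2 and male Ctrl replicate 1.

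**Figure D4:**
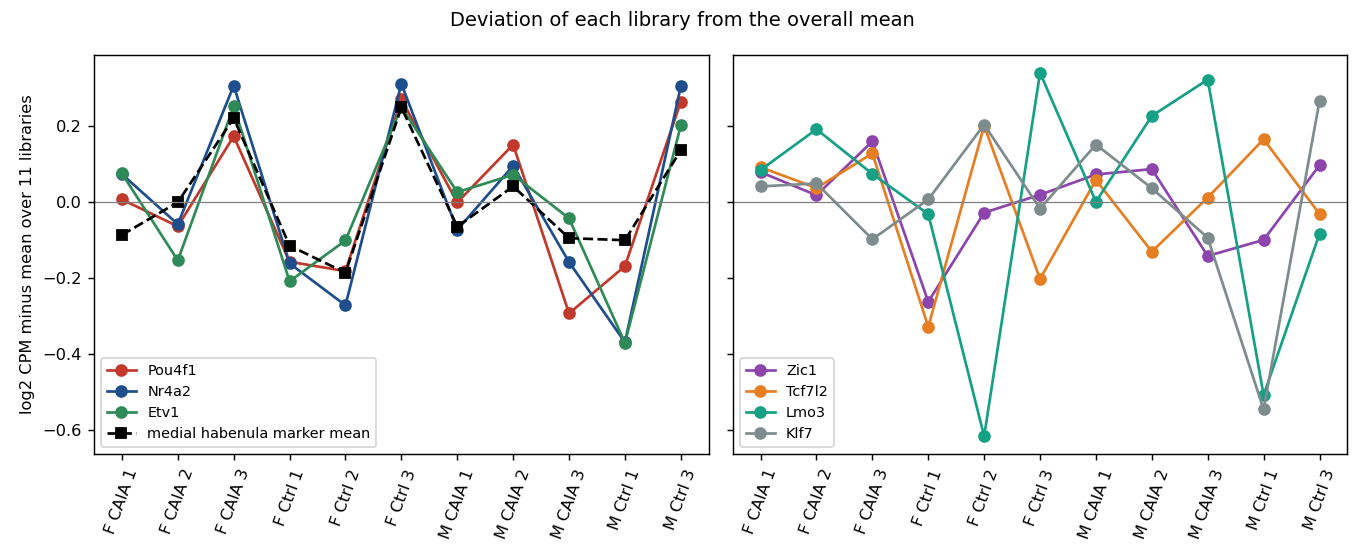
Log2 CPM of each library minus the mean over the 11 libraries, for Pou4f1, Nr4a2, Etv1 and the mean of the medial habenula markers (left) and for Zic1, Tcf7l2, Lmo3 and Klf7 (right). Libraries run from female CAIA and female Ctrl to male CAIA and male Ctrl, and lines only guide the eye. The curves on the left run close together, and those on the right do not.

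Pou4f1 and Nr4a2 also varied together with markers of the medial habenula. Over 64 relations between the 8 genes and the mean log2 CPM of 8 marker lists, 2 passed. Nr4a2 had an r of 0.899 and a rho of 0.945 with the 15 medial habenula markers (permutation p = 0.00015, adjusted 0.0096), and Pou4f1 an r of 0.874 and a rho of 0.891 (permutation p = 0.00036, adjusted 0.0115). Without the 2 libraries farthest from the median, r was 0.842 for Nr4a2 and 0.877 for Pou4f1. Leaving out male CAIA replicate 2 brought both adjusted permutation p to 0.0506, and leaving out female Ctrl replicate 3 brought that of Pou4f1 to 0.064. Etv1 had an r of 0.780 with the same list and did not pass (permutation p = 0.0983 adjusted). On deviations from group means r was 0.904 for Nr4a2 and 0.870 for Pou4f1, and neither passed in the exact permutation within groups (adjusted p = 0.247 and 0.222). The smallest p this permutation can give, 0.00231, was reached by Lmo3 with thalamus markers. It adjusted to 0.148 over the 64 relations, so a single relation could not pass.

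The single markers of the medial habenula list differed widely in r. An r above 0.8 was found for 7 of 15 markers with Pou4f1, 7 of 15 with Nr4a2 and 5 of 15 with Etv1, against 0.52%, 0.77% and 0.78% of all genes in the same order. The highest was that of Slc5a7, the choline transporter, with Etv1 (r = 0.961), followed by Chrnb3, a nicotinic receptor subunit gene, with Etv1 (0.960). Other subunit genes followed, with an r of 0.959 for Chrna3 with Nr4a2 and of 0.936 for Chrnb4 with Pou4f1. The receptor gene Gpr151 had an r of 0.869 with Pou4f1, 0.865 with Nr4a2 and 0.819 with Etv1, and Syt15, a synaptotagmin, 0.887, 0.820 and 0.798 in the same order. Slc18a3, the vesicular acetylcholine transporter, was lower, at 0.759, 0.660 and 0.599. The lowest for Pou4f1 was Il18 (-0.11) and for Nr4a2 Calb2 (-0.03), so the list did not move as a block. These markers were picked by their r, as a description.

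For the thalamus the picture differed between the 8 genes. Tcf7l2, which marks thalamic as well as habenular neurons in mice, had an r of 0.690 and a rho of 0.80 with the 12 thalamus markers (permutation p for r 0.195 adjusted), and an r of -0.733 with hippocampus and cortex markers (0.16 adjusted). Lmo3 had an r of -0.709 with thalamus markers (permutation p 0.195 adjusted). Isl1 had an r of -0.680 with them (permutation p 0.195 adjusted), which was -0.269 without 2 libraries, and a rho of -0.355. Zic1 had an r of 0.637 with lateral habenula markers (permutation p 0.195 adjusted) and of 0.579 with medial ones (0.26 adjusted). By rank the order turned, with a rho of 0.664 for the lateral and 0.745 for the medial list. Gpr151 is on both lists. Klf7 had an r of 0.720 with lateral habenula markers, which was 0.173 without 2 libraries and thus rested on them. None of these passed. Choroid plexus and pineal marker levels differed widely between libraries, and none of their relations with the 8 genes passed. For Isl1 and the pineal markers r was 0.405 (permutation p 0.558 adjusted), with Isl1 at 3 to 24 counts per library.

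**Figure D5:**
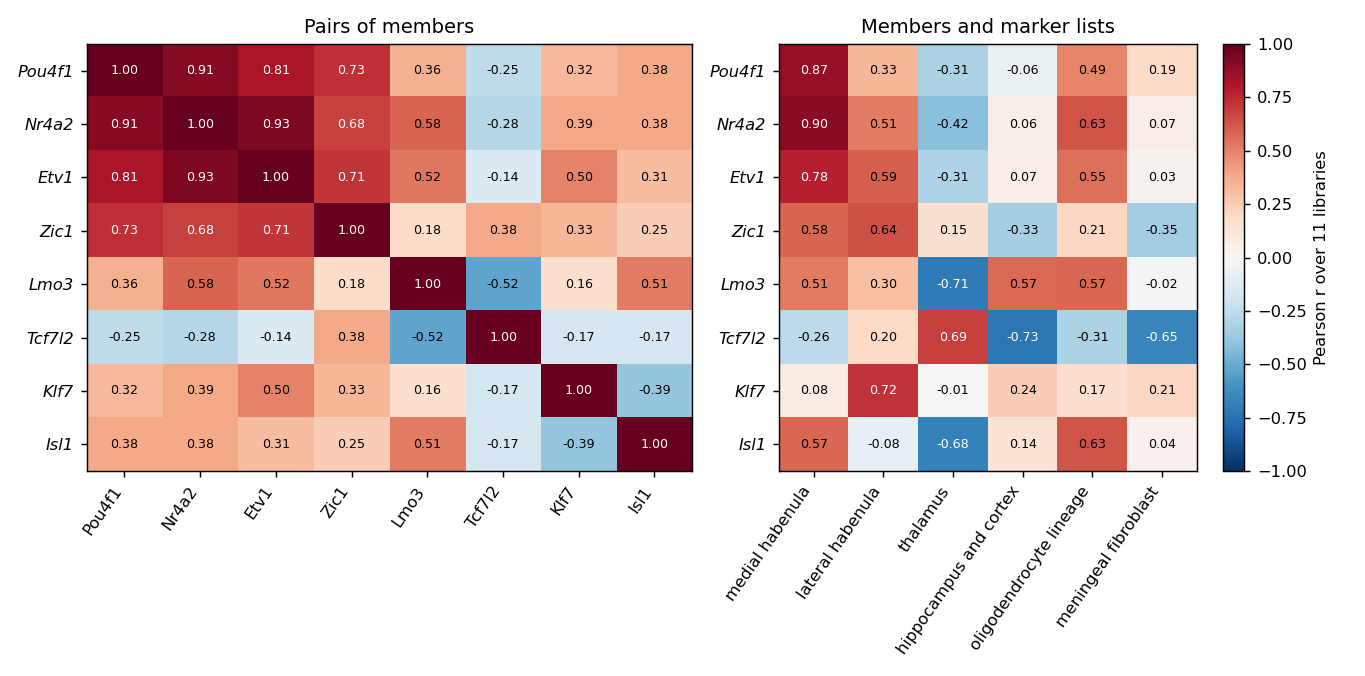
Pearson r of log2 CPM over 11 libraries for pairs of the 8 genes (left) and for each gene with the mean of 6 marker lists (right), from -1 (blue) to 1 (red). Pou4f1, Nr4a2, Etv1 and Zic1 form a block of high r in the upper left, and the first 3 have the highest r with medial habenula markers.

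The genes whose levels were most like each factor were sought among 15555 others with at least 1 CPM, by r over the 11 libraries. For Pou4f1 they were Syt9, a synaptotagmin (r = 0.949), 2510009E07Rik (0.942) and Chrnb4 (0.936). Nr4a2 was most like Lrrc55, an auxiliary subunit of BK potassium channels (0.980), 2510009E07Rik (0.980) and Nwd2 (0.964), and Etv1 most like Slc5a7, Chrnb3 and the hedgehog-binding gene Hhip (0.955). Pou4f1 and Nr4a2 thus shared 1 of their 3 nearest genes. Zic1 was most like Lhx9, a LIM homeodomain factor of the dorsal diencephalon (0.928), the Wnt receptor gene Fzd9 (0.897) and Colgalt2 (0.893).

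Tcf7l2 was nearest to Rsrc1 (0.937), Gpr137c (0.923) and Slitrk6 (0.909). Lmo3 was nearest to Plekha1 (0.944), Epc1 (0.938) and the secreted glycoprotein gene Reln (0.923). Klf7 was most like Faxc (0.969), Trappc8 (0.968) and the kinase gene Atm (0.967), and 2.95% of all genes had an r above 0.8 with it, more than with any of the other 7. For Isl1, Hnrnpa2b1 (0.919), Ccdc34 (0.904) and Sgce (0.896) came first, but with 3 to 24 counts these orders rest on few reads. All of these likenesses are over the same 11 dissections, which share differences in tissue composition.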

How the data were processed

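RNA-seq libraries from 11 samples were used, grouped by sex and treatment from the labels. The deposited table holds raw counts of reads for each gene. The authors made it by trimming with cutadapt 1.9.1, aligning to GRCm38 with HISAT2 2.0.5 and counting with featureCounts (1.5.0-p3), as the submitters' processing notes list them. The sources used here give neither annotation release nor strand setting. Totals were 25317306 to 29565006 counts per library, which cover counting error of reads only. Chi-square per degree of freedom between libraries of a group was 6.59 to 27.7, so they differed by more than counting error. Each library was treated as 1 replicate, although this does not show that they came from different mice.

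Genes were filtered with filterByExpr, scaled by TMM and fitted as 4 group means in edgeR 4.0.16 (R 4.3.3, robust glmQLFit, glmQLFTest, 7 residual degrees of freedom), with Benjamini-Hochberg adjustment over 19619 genes at 0.05. Contrasts weighted the sexes equally. The fit was tested on simulated data. CPM used TMM-scaled totals, log2 CPM a prior count of 2, and TPM union exon lengths of GENCODE M21, to which 54409 of 54532 identifiers matched. Correlations used 100000 permutations, two-sided. Promoters were matched for 8 of 8 genes in RefSeq. Alternatives were RLE factors, other filters, DESeq2 1.42.0, limma-voom (limma 3.58.1), a replicate block, an additive model, each sex alone and each library left out.

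Named were all 8 genes, the most abundant of the relatives listed for each family and the 3 genes most alike in r. List genes that passed or had the 3 lowest p of their list were eligible, and some of them are given. Single medial habenula markers were picked after their r was seen. The 8 genes and all lists were chosen with earlier results of these data known.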

Additional observations from a re-analysis of the deposited data

Results flagged for a closer look

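Isl1 in female Ctrl replicate 3 stood apart from the other Ctrl libraries, with 0.817 CPM (24 counts) against 0.109 to 0.301 CPM in the other 4. The gap to the nearest was 0.728 of the whole range, above Dixon's critical value of 0.710 for 5 samples. It was the single case among 16 sets tested, the CAIA and the Ctrl libraries for each of the 8 genes, and chance alone marks about 1 in 20. Without this library the log2 fold change of Isl1 in females was 1.13, against -0.14 with it, and neither passed in edgeR.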

How the results depend on the processing

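Of 697 values of the 8 genes under other settings, 2 passed in edgeR, both for Lmo3 without a filter on low counts (0.32 over both sexes and 0.47 in males), and 75 had the opposite sign. Apart from fits that left out a library, these were Etv1 in the difference between the sexes (0.0064 with RLE factors, 0.0035 without a filter, 0.0036 with a stricter filter, 0.0065 in DESeq2), Pou4f1 in females against males (-0.00089, -0.011 and -0.0010 with RLE factors, a stricter filter and DESeq2), Isl1 in females (0.25 in limma-voom) and Nr4a2 in males (0.036 with the replicate block).

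With a library left out, log2 fold changes whose sign turned ranged as follows, none of them called. Over both sexes the range was -0.13 to 0.10 for Pou4f1, -0.11 to 0.24 for Nr4a2, -0.0051 to 0.13 for Tcf7l2, -0.062 to 0.24 for Etv1, -0.11 to 0.79 for Isl1 and -0.16 to 0.27 for Klf7. In females it was -0.028 to 0.21 for Pou4f1, -0.042 to 0.41 for Lmo3, -0.036 to 0.22 for Etv1, -0.49 to 1.13 for Isl1 and -0.11 to 0.011 for Klf7. In males it was -0.31 to 0.14 for Pou4f1, -0.35 to 0.34 for Nr4a2, -0.17 to 0.0055 for Tcf7l2, -0.094 to 0.12 for Zic1, -0.19 to 0.40 for Etv1, -0.091 to 1.33 for Isl1 and -0.24 to 0.59 for Klf7. For the sex difference it was -0.087 to 0.35 for Pou4f1, -0.20 to 0.48 for Nr4a2, -0.32 to 0.26 for Etv1, -1.47 to 0.68 for Isl1 and -0.65 to 0.16 for Klf7. For females against males it was -0.10 to 0.12 for Pou4f1, -0.090 to 0.26 for Nr4a2, -0.12 to 0.017 for Tcf7l2, -0.059 to 0.049 for Zic1, -0.040 to 0.20 for Lmo3, -0.086 to 0.21 for Etv1, -0.025 to 1.04 for Isl1 and -0.12 to 0.29 for Klf7.

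Genes called over both sexes, in females, in males, for the sex difference and for females against males numbered 470, 452, 423, 316 and 278 without a filter and 222, 171, 71, 2 and 23 in DESeq2, against 117, 51, 0, 0 and 9. The cause was not tested. Females alone gave 108 and males alone 43. Leaving out a library gave 43 to 180, 0 to 104, 0 to 142, 0 to 0 and 7 to 23, with 0 in females when any 1 female CAIA library was left out.

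Pairs of the 8 genes past the threshold numbered 2 to 4 when a library was left out, 6 by rho and 0 on deviations from group means, and relations with marker lists 0 to 4, with 0 on such deviations. The alternatives for marker lists and Lmx1a, rho, transcript length and libraries left out of correlations were chosen after seeing the data. Levels with the longest transcript as length moved beyond 1 SD for Tcf7l2 (334 TPM), Zic1 (414) and Etv1 (83.4).

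Deviations from group means of samples with the same replicate number had an r of -0.206 to 0.104. Samples with different numbers were not compared, so whether the numbers mark a pairing or a batch remains unknown. With the replicate block 115, 45, 1, 0 and 8 genes passed in the comparisons above, and the Lmx1a call was lost (adjusted p = 0.0669). Depth limits Isl1 alone among the 8, at 3 to 24 counts.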
